A study of Mus musculus with 21 samples.

Results

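The comparison described here is the effect of tumour necrosis factor (TNF) on macrophages given IL-4 and IL-13, which are interleukins of type 2 immunity, measured late, at 24 h, and early, at 6 h. It rests on 12 of the 21 libraries of the study, in 4 groups of 3 named IL_TNF_24h, IL_24h, IL_TNF_6h and IL_6h after the cytokines and the hours, IL being IL-4 and IL-13 together. The TNF effect at each time was the log2 level in IL_TNF minus that in IL, and the quantity of interest was the effect at 24 h minus the effect at 6 h. All cells were bone-marrow-derived macrophages, grown in M-CSF from bone marrow of wild-type C57BL/6 mice of 8 to 10 weeks, and the cytokines were given at 10 ng/ml. IL_TNF_24h cells had IL-4, IL-13 and TNF for 24 h, IL_24h cells had IL-4 and IL-13 for 24 h, and the 6 h groups had the same for 6 h. Both control groups thus carry IL-4 and IL-13. The 6 libraries of cells that had TNF without IL, TNF_24h and TNF_6h, entered none of these differences and served to describe the sorted genes further. All 21 libraries, these included, entered the filter on low counts, the scaling and the estimate of spread per gene.

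TNF signals through receptors that activate NF-kB transcription factors, and its target genes are known to follow different courses, since some are shut off within hours by induced inhibitors and others accumulate. IL-4 and IL-13 act through receptor chains that activate the transcription factor STAT6 and turn macrophages toward the alternatively activated state, marked by genes such as Arg1, Retnla and Mrc1. In macrophages, TNF is known to oppose part of that programme and to induce type I interferon, which in turn induces a set of antiviral genes.

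The 12 libraries held between 31.3 and 48.7 M counts in genes (M, 1e6), and each of the 8 macrophage markers examined exceeded 10 CPM (counts per 1e6, scaled between libraries) in at least 1 of them. The summed markers of neutrophils ranged from 19.3 to 20.1 CPM in IL_TNF_24h, from 6.52 to 7.53 CPM in IL_24h, from 3.43 to 4.78 CPM in IL_TNF_6h and from 4.04 to 5.33 CPM in IL_6h. That sum was mostly the protease gene Mmp8, and 2 of the 10 neutrophil markers were at 0 in all 12 libraries. The summed erythroid markers, nearly all of it the transferrin receptor gene Tfrc, ranged from 512 to 719 CPM in IL_TNF_24h and 305 to 322 CPM in IL_24h, and from 159 to 240 CPM in IL_TNF_6h and 234 to 362 CPM in IL_6h. The summed dendritic cell markers, Bst2 the highest of them, ranged from 282 to 641 CPM in IL_TNF_24h and 167 to 184 CPM in IL_24h, and from 486 to 762 CPM in IL_TNF_6h and 408 to 720 CPM in IL_6h. The part of these markers in the results was not tested. The 24 h libraries and the 6 h libraries formed separate sets by sex-linked genes and by 1 autosomal gene. The X-linked RNA Xist was at most 0.145 CPM in the 24 h libraries and at least 562 CPM in the 6 h libraries. The Y-linked gene Ddx3y was at least 41.8 CPM at 24 h and 0 at 6 h. Ifi202b, an interferon-inducible gene on chromosome 1 known to vary between mouse strains, was 0 in the 24 h libraries and between 30.3 and 64.2 CPM in the 6 h libraries. Each TNF effect lies inside a set, but in their difference time and set cannot be told apart. Whether replicates were independent cultures or animals is not stated in the labels. P values therefore reflect only how far these samples spread, and that spread may be technical. In bulk RNA, fewer cells of a type and less RNA per cell cannot be told apart.

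3 libraries stood apart from their replicates. IL_TNF_24h replicate 1 had a median of 3.43 for interferon-stimulated genes on the log2 scale over the IL_24h mean, against 1.10 and 1.01 in replicates 2 and 3. Its median for cell cycle genes was -2.59, against -0.47 and -0.63. The fibroblast collagen gene Col1a1 was 4.08 CPM in IL_TNF_6h replicate 3 and 5.23 CPM in IL_6h replicate 2, while the 10 remaining ones reached at most 0.543 CPM. The main counts, and the named values that move most, are given with and without these libraries.

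Of 15581 genes tested, 1731 were called at 24 h (11.1%), 940 of them raised (6.03%) and 791 lowered (5.08%). At 6 h, 2193 were called (14.1%), 1105 raised (7.09%) and 1088 lowered (6.98%). A gene counted as called when its adjusted p was under 0.05 in edgeR's quasi-likelihood test with Benjamini-Hochberg adjustment over all genes tested. The difference between the effects was called for 573 genes (3.68%), with 295 higher at 24 h (1.89%) and 278 lower at 24 h (1.78%). The median difference over all genes was 0.02. A gene called at 1 time and missed at the other was put in a time class only where the difference was called too.

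Of the 2970 genes called at 1 time or both, 922 were called with the same sign at both times. That class asked for no call of the difference, unlike the only-early and only-late classes, so their sizes do not compare directly. There were 524 genes raised at both times (3.36%) and 398 lowered at both times (2.55%). The difference was not called for 462 of the raised and 357 of the lowered genes. An effect seen only late was found for 99 raised genes (0.635%) and 74 lowered genes (0.475%). An effect seen only early was found for 133 raised genes (0.854%) and 117 lowered genes (0.751%). Opposite effects were found for 32 genes, 18 lowered early and raised late (0.116%) and 14 raised early and lowered late (0.0899%). The remaining 1593 genes called at 1 time (10.2%) were not sorted, because the difference between their effects was not called.

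**Figure D1:**
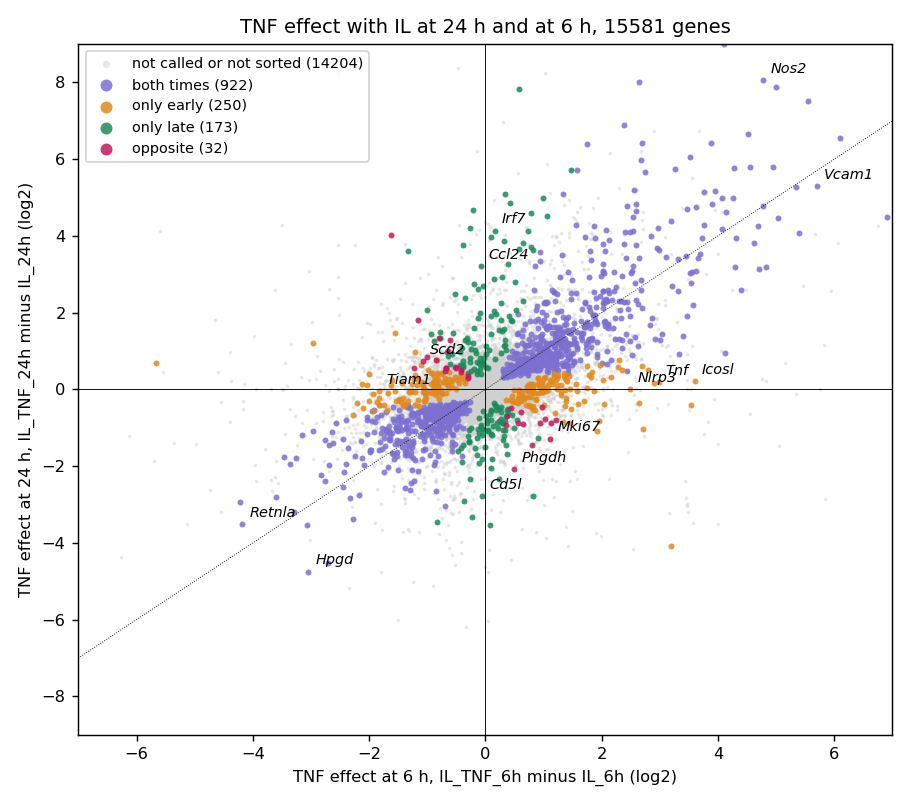
TNF effect with IL at 24 h (y axis, log2 of IL_TNF_24h minus IL_24h) against that at 6 h (x axis, log2 of IL_TNF_6h minus IL_6h), 1 point per gene tested, coloured by time class, with the number of genes in the legend and equal effects on the dotted line. Genes raised or lowered at both times lie along the dotted line, Tnf and Icosl lie to the right near the horizontal axis, and Ccl24 and Irf7 lie high near the vertical axis. The axes leave out 4 genes.

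Without IL_TNF_24h replicate 1 the 24 h effect was called for 743 raised (4.5%) and 648 lowered genes (3.92%), and the difference for 337 genes higher (2.04%) and 361 lower (2.19%) at 24 h. These shares are of 16514 genes, since the filter on low counts was applied anew. Only-early effects then numbered 194 raised and 154 lowered, and only-late effects 89 raised and 78 lowered. Of the 133 genes raised only early, 116 stayed in that class, and so did 96 of the 117 lowered only early. Of the genes seen only late, 70 of 99 raised and 55 of 74 lowered stayed. Of the genes raised at both times, 403 of 524 stayed and 22 became raised only early. With all 3 libraries left out, only-early effects numbered 215 raised and 165 lowered, and only-late effects 115 raised and 101 lowered.

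**Figure D2:**
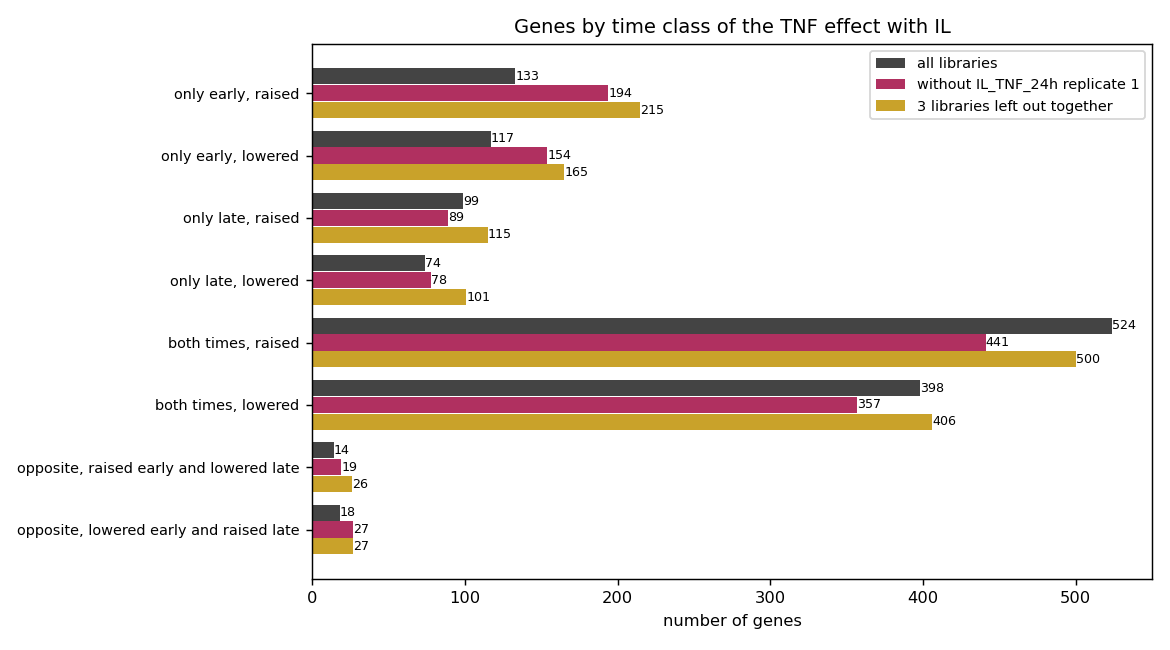
Number of genes in each time class of the TNF effect with IL, with all libraries, without IL_TNF_24h replicate 1, and without that library, IL_6h replicate 2 and IL_TNF_6h replicate 3 together. Genes raised only early number 133, 194 and 215 in the 3 fits, and genes raised at both times 524, 441 and 500.

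The promoters of a few genes that stand for these classes are shown because NF-kB and STAT6 bind short, loosely defined sequences, and a reader can see there what those letters look like. Sequences are 300 bases of RefSeq promoters in GRCm38.p6, from 250 bases before to 50 after the start of the gene, written 5′ to 3′ on the strand of the gene. Capitals mark a match on either strand to a kB-type motif, GGGNNNNNCC, in Tnf and Icosl (raised only early) and in Irf7 (raised only late, where 2 matches overlap). In Retnla (lowered at both times) they mark a match to a STAT6-type motif, TTCNNNNGAA. The windows are chr17:35201958-35202257 on the minus strand for Tnf, chr10:78069118-78069417 on the plus strand for Icosl, chr7:141266375-141266674 on the minus strand for Irf7 and chr16:48842359-48842658 on the plus strand for Retnla.
Tnf: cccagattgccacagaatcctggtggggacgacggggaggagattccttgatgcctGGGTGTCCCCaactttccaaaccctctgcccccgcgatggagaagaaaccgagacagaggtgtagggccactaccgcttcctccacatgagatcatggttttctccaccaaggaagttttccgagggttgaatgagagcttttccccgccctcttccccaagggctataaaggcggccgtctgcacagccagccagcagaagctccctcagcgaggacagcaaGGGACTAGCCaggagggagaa
Icosl: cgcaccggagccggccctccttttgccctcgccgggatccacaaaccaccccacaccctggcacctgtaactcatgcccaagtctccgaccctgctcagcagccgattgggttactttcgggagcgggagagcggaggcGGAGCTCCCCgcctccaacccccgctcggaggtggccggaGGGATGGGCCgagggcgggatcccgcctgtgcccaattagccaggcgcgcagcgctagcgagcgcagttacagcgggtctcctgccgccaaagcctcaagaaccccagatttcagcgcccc
Irf7: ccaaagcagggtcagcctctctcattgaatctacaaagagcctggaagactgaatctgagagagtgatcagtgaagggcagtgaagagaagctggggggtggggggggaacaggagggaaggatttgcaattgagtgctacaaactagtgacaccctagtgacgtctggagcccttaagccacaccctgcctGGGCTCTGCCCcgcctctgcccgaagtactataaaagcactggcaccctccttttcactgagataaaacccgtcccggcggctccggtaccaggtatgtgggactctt
Retnla: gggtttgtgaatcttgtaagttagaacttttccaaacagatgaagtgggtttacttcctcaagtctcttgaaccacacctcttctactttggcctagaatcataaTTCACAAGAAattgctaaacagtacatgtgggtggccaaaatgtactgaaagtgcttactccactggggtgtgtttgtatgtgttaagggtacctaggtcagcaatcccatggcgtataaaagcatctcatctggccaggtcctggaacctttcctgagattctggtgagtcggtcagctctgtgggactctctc
The kB-type motif is common in such windows. It was found in 66.7% of the promoters of genes raised only early, 58.1% of those of genes raised only late, 65.1% of those of genes raised at both times and 66.2% of those of all genes tested. The STAT6-type motif was found in 5.30% of the promoters of genes lowered at both times and in 5.56% of those of all genes tested. Over all 32851 promoters of the table the shares were 50.8% and 6.95%. A match is a description of letters and not a binding site.

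The genes named by class are those whose IL_TNF and IL libraries do not overlap at the times called, which held for 36.4% of all genes tested at 24 h and 27.2% at 6 h. Genes raised only early included those of 2 secreted inflammatory cytokines, an inflammasome sensor and a co-stimulatory ligand, all of which were near their IL_24h levels in IL_TNF_24h. Tnf itself, the gene of the added cytokine (ENSMUSG00000024401, chromosome 17, 35199367 to 35202007 in GRCm38.p6), had 11.2, 7.22 and 8.73 CPM in IL_TNF_24h, against 7.89, 8.06 and 7.82 CPM in IL_24h. At 6 h it had 218, 220 and 197 CPM in IL_TNF_6h, against 30.7, 26.9 and 23.2 CPM in IL_6h. The groups overlapped at 24 h and stood well apart at 6 h. The TNF effect on Tnf was 0.19 ± 0.15 at 24 h (log2 ± standard error, adjusted p = 0.585) and 2.98 ± 0.16 at 6 h (adjusted p = 1.62e-10), a difference of -2.79 ± 0.21 (adjusted p = 2.34e-07).

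Icosl, which encodes the ligand of the T cell co-stimulator ICOS (ENSMUSG00000000732, chromosome 10, 78069368 to 78079525), had 3.63, 2.22 and 2.03 CPM in IL_TNF_24h and 2.16, 1.90 and 2.68 CPM in IL_24h. It had 61.7, 62.7 and 62.1 CPM in IL_TNF_6h and 4.82, 4.73 and 5.89 CPM in IL_6h. All 3 IL_TNF_6h libraries were far above the 9 others, and the difference of the effects was -3.38 ± 0.24 (adjusted p = 1.69e-07). Nlrp3, the sensor of an inflammasome (ENSMUSG00000032691, chromosome 11, 59541569 to 59566955), had 17.9, 12.4 and 14.8 CPM in IL_TNF_24h and 14.6, 14.6 and 15.7 CPM in IL_24h. It had 217, 214 and 199 CPM in IL_TNF_6h and 38.7, 33.1 and 40.3 CPM in IL_6h. Its effect was 0.00 ± 0.21 at 24 h and 2.49 ± 0.21 at 6 h. As for Tnf, the groups overlapped only at 24 h.

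Il1b, the interleukin 1 beta gene, had 0.197, 0.210 and 0.871 CPM in IL_TNF_24h and 0.584, 0.305 and 0.252 CPM in IL_24h, and 17.6, 14.4 and 19.4 CPM in IL_TNF_6h and 2.16, 2.47 and 2.27 CPM in IL_6h. The difference of its effects was -2.73 ± 0.64 (adjusted p = 0.0187), and the call held in 15 of 20 alternatives, with adjusted p up to 0.13. It was lost, among others, without the 3 libraries that stood apart. Itga4, an integrin chain of leukocyte adhesion, differed by -2.42 ± 0.31. Fzd1, a receptor for Wnt proteins, differed by the most of these genes, -3.75 ± 0.89 (adjusted p = 0.0207). Its 24 h levels of 5.66, 5.51 and 5.05 CPM in IL_TNF_24h were below the 11.2, 11.7 and 10.5 CPM in IL_24h. Its 24 h effect of -1.04 was not called, and the call of its difference held in 11 of 19 alternatives, with adjusted p up to 0.0721. It too was lost without those 3 libraries.

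The named genes lowered only early, Spint1 aside, had low levels in IL_TNF_6h and levels near those of IL_24h in IL_TNF_24h. Tiam1, an activator of the small GTPase Rac (ENSMUSG00000002489, chromosome 16, 89787111 to 90145600), had 89.4, 158 and 158 CPM in IL_TNF_24h and 143, 140 and 135 CPM in IL_24h. It had 33.7, 30.7 and 28.1 CPM in IL_TNF_6h and 106, 113 and 111 CPM in IL_6h. At 24 h replicate 1 of IL_TNF_24h lay below all IL_24h libraries and replicates 2 and 3 above them, while at 6 h the groups were far apart. The effect was -0.04 ± 0.22 at 24 h and -1.84 ± 0.23 at 6 h, and the difference 1.79 ± 0.32 (adjusted p = 0.00227).

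Gpr155, a membrane protein of the lysosome, had 25.9, 25.3 and 27.8 CPM in IL_TNF_24h and 28.2, 29.5 and 28.3 CPM in IL_24h, and 8.65, 10.8 and 13.9 CPM in IL_TNF_6h and 37.8, 46.8 and 43.5 CPM in IL_6h. The 24 h effect of -0.12 ± 0.13 was small beside that of -1.94 ± 0.14 at 6 h, a difference of 1.82 ± 0.19 (adjusted p = 1.33e-05). Bmf, a gene that promotes apoptosis, differed by 1.84 ± 0.22, Abcd2, a peroxisomal transporter of fatty acids, by 1.86 ± 0.30, and Gcnt1, an enzyme of O-glycan branching, by 1.71 ± 0.27. Spint1, an inhibitor of serine proteases, differed by 3.01 ± 0.68. It had 9.65, 12.4 and 10.8 CPM in IL_TNF_24h and 3.66, 4.15 and 4.13 CPM in IL_24h, but its 24 h effect of 1.46 missed the threshold (adjusted p = 0.0552). Without the 3 libraries that stood apart its 6 h effect was not called either.

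Genes raised only late included Ccl24, a chemokine that attracts eosinophils and is itself an IL-4 target, and Irf7, a transcription factor of the interferon response. Ccl24 (ENSMUSG00000004814, chromosome 5, 135569935 to 135573123) had 62.6, 57.1 and 57.5 CPM in IL_TNF_24h and 5.43, 7.83 and 5.76 CPM in IL_24h. At 6 h it had 2.28, 1.44 and 1.87 CPM in IL_TNF_6h and 1.94, 1.97 and 1.95 CPM in IL_6h. Only the IL_TNF_24h libraries were high, and the 6 h groups overlapped. The effect was 3.22 ± 0.30 at 24 h and -0.08 ± 0.32 at 6 h, and the difference 3.30 ± 0.43 (adjusted p = 9.56e-05), or 3.25 without IL_TNF_24h replicate 1.

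Irf7 (ENSMUSG00000025498, chromosome 7, 141263183 to 141266499) had 510, 78.8 and 76.2 CPM in IL_TNF_24h and 11.1, 12.5 and 14.2 CPM in IL_24h. It had 633, 645 and 519 CPM in IL_TNF_6h and 608, 450 and 550 CPM in IL_6h. The 6 h libraries were thus high with and without TNF, while at 24 h the IL_24h libraries were low and IL_TNF_24h lay above them, replicate 1 far above the other 2. The effect was 4.14 ± 0.52 at 24 h and 0.16 ± 0.46 at 6 h, a difference of 3.98 ± 0.67 (adjusted p = 0.00144). Without replicate 1 the difference was 2.46 (adjusted p = 5.61e-06).

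2 other interferon-inducible genes of this class moved by more than 1.5 on the log2 scale without that library. Ly6a, which encodes a surface protein anchored by a lipid, had 10.7, 1.21 and 1.67 CPM in IL_TNF_24h and 0.117, 0.281 and 0.330 CPM in IL_24h. At 6 h it had 29.9, 31.4 and 31.1 CPM in IL_TNF_6h and 39.9, 32.3 and 38.7 CPM in IL_6h, all above IL_TNF_24h. Its difference was 4.46 ± 0.81, or 2.82 without replicate 1. Ms4a4c, a membrane protein gene, had 55.9, 3.29 and 3.17 CPM in IL_TNF_24h and 0.760, 0.305 and 1.01 CPM in IL_24h, and its difference was 4.45 ± 1.05, or 1.77 without replicate 1. That call held in 14 of 19 alternatives, with adjusted p up to 0.0848. P2rx5, an ion channel opened by ATP, did not follow that library. It had 40.6, 64.0 and 62.7 CPM in IL_TNF_24h and 2.80, 3.54 and 3.16 CPM in IL_24h. At 6 h it had 6.12, 5.50 and 4.34 CPM in IL_TNF_6h and 2.81, 2.99 and 3.79 CPM in IL_6h. These did not overlap, but the 6 h effect of 0.74 was not called (adjusted p = 0.381). Its difference was 3.40 ± 0.64, or 3.58 without replicate 1. Nr4a3, an orphan nuclear receptor, had 18.4, 23.7 and 20.9 CPM in IL_TNF_24h and 1.75, 1.38 and 1.20 CPM in IL_24h, and its 6 h libraries were at most 1.25 CPM. Its difference was 3.54 ± 0.83 (adjusted p = 0.0189), a call that held in 12 of 20 alternatives, with adjusted p up to 0.0748, and that was lost without the 3 libraries that stood apart.

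The 6 genes named as lowered only late were Cd5l, Clstn1, Qpct, Gpx3, Ccl2 and Proz. Cd5l, which encodes a secreted inhibitor of macrophage apoptosis (ENSMUSG00000015854, chromosome 3, 87357881 to 87371074), had 11.7, 6.66 and 7.69 CPM in IL_TNF_24h and 52.1, 61.7 and 64.3 CPM in IL_24h. It had 26, 24.9 and 21.8 CPM in IL_TNF_6h and 26.6, 23.2 and 26.1 CPM in IL_6h. The 24 h groups stood apart and the 6 h groups overlapped. The effect was -2.78 ± 0.17 at 24 h and -0.06 ± 0.16 at 6 h, and the difference -2.72 ± 0.23 (adjusted p = 6.53e-07).

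Qpct, an enzyme that modifies the amino end of chemokines and other secreted proteins (ENSMUSG00000024084, chromosome 17, 79051906 to 79090378), had 5.88, 11.2 and 11.3 CPM in IL_TNF_24h and 44.3, 48.2 and 52.7 CPM in IL_24h. It had 29.4, 27.4 and 30.8 CPM in IL_TNF_6h and 34.2, 35.4 and 36.1 CPM in IL_6h, and its difference was -2.08 ± 0.25. Ccl2, the chemokine that recruits monocytes, had 6.95, 10.3 and 9.07 CPM in IL_TNF_24h and 21.4, 21.3 and 22.4 CPM in IL_24h, and 36.4, 37.7 and 38.9 CPM in IL_TNF_6h and 30.0, 33.3 and 28.7 CPM in IL_6h. All IL_TNF_6h libraries of Ccl2 lay above IL_6h, but the effect of 0.30 was not called (adjusted p = 0.164), and the difference was -1.60 ± 0.19. The differences of Clstn1, a calcium-binding membrane protein, of Gpx3, a secreted glutathione peroxidase, and of Proz, a cofactor in the control of blood coagulation, were -2.14 ± 0.39, -1.74 ± 0.27 and -1.52 ± 0.26.

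**Figure D3:**
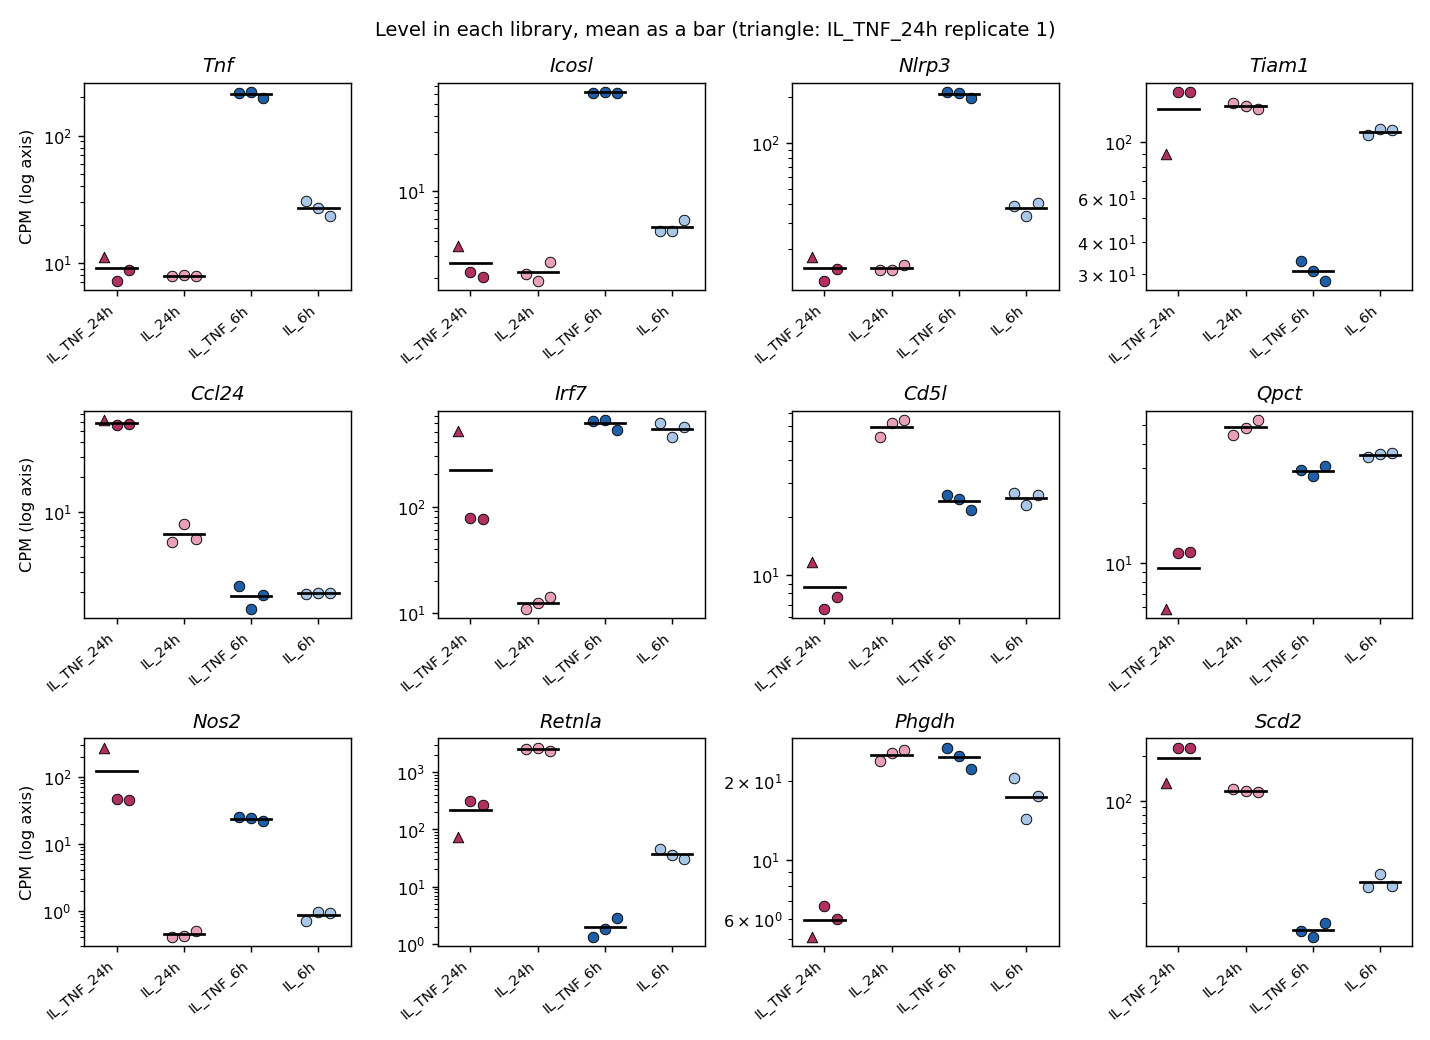
Level of 12 named genes in each library of IL_TNF_24h, IL_24h, IL_TNF_6h and IL_6h (y axis, CPM, log axis), with the group mean as a bar and IL_TNF_24h replicate 1 as a triangle. Tnf, Icosl and Nlrp3 are high only in IL_TNF_6h, with Icosl between 61.7 and 62.7 CPM there. Ccl24 is high only in IL_TNF_24h, and the triangle stands apart for Irf7, Nos2 and Retnla.

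Among genes raised at both times, those with the largest smaller effect were Vcam1, Nos2, Lad1, Gbp5 and Fscn1. Vcam1, an adhesion molecule for leukocytes (ENSMUSG00000027962, chromosome 3, 116110020 to 116129688), had 8.92, 4.28 and 4.40 CPM in IL_TNF_24h and 0.136, 0.281 and 0.0388 CPM in IL_24h. It had 22.4, 20.8 and 25.3 CPM in IL_TNF_6h and 0.530, 0.571 and 0.172 CPM in IL_6h. IL_TNF lay far above IL at both times. The effects were 5.29 ± 0.54 at 24 h and 5.70 ± 0.50 at 6 h, and their difference of -0.41 ± 0.82 was not called (adjusted p = 0.942).

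Nos2, whose product makes nitric oxide (ENSMUSG00000020826, chromosome 11, 78920787 to 78960226), had 269, 46.2 and 44.6 CPM in IL_TNF_24h and 0.409, 0.422 and 0.505 CPM in IL_24h. It had 24.9, 23.9 and 22 CPM in IL_TNF_6h and 0.707, 0.960 and 0.919 CPM in IL_6h. The effect was 8.06 ± 0.78 at 24 h, or 6.66 without replicate 1, and 4.78 ± 0.69 at 6 h. The difference of 3.29 ± 1.00 missed the threshold (adjusted p = 0.0828), as did that of 1.88 without replicate 1 (adjusted p = 0.156). Lad1, an anchoring filament protein, had effects of 5.80 at 24 h and 4.55 at 6 h, Gbp5, an interferon-induced GTPase, of 6.66 and 4.52, and Fscn1, which bundles actin, of 4.47 and 5.04.

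Among genes lowered at both times, Retnla, a secreted marker of alternative activation (ENSMUSG00000061100, chromosome 16, 48842609 to 48844461), had 72.9, 315 and 273 CPM in IL_TNF_24h, against 2514, 2664 and 2342 CPM in IL_24h. It had 1.34, 1.85 and 2.83 CPM in IL_TNF_6h, against 44.7, 35.2 and 30.3 CPM in IL_6h. Every IL_TNF library was far below every IL library of its time, with replicate 1 of IL_TNF_24h the lowest of that group. The effects were -3.51 ± 0.41 at 24 h and -4.18 ± 0.45 at 6 h, and their difference of 0.68 ± 0.56 was not called (adjusted p = 0.759).

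Hpgd, which breaks down prostaglandins (ENSMUSG00000031613, chromosome 8, 56294552 to 56321046), was lowered more at 24 h. It had 0.169, 0.140 and 0.0967 CPM in IL_TNF_24h and 3.66, 3.98 and 3.43 CPM in IL_24h, and 0.769, 1.24 and 1.75 CPM in IL_TNF_6h and 8.59, 13.0 and 9.85 CPM in IL_6h. Its effects were -4.75 ± 0.32 at 24 h and -3.05 ± 0.23 at 6 h, a difference of -1.70 ± 0.43 (adjusted p = 0.032). Scn3a, a sodium channel, had effects of -3.19 at 24 h and -3.30 at 6 h, Rasgrp3, an activator of Ras, of -2.38 and -2.75, and Eps8, an actin regulator, of -1.98 and -2.69. None of these 3 differences was called with all libraries. That of Eps8, 0.71 with all libraries, was 0.98 without IL_TNF_24h replicate 1 and then called (adjusted p = 0.0272).

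Genes with opposite effects included an enzyme of serine synthesis, a proliferation marker and a pair of fatty acid desaturases. Phgdh, the first enzyme of serine synthesis (ENSMUSG00000053398, chromosome 3, 98313171 to 98339969), had 5.12, 6.68 and 5.97 CPM in IL_TNF_24h and 23.7, 25.4 and 26.1 CPM in IL_24h. It had 26.6, 24.9 and 22.2 CPM in IL_TNF_6h and 20.4, 14.3 and 17.5 CPM in IL_6h. The groups did not overlap at either time, with IL_TNF below IL at 24 h and above it at 6 h. The effect was -2.08 ± 0.14 at 24 h and 0.50 ± 0.13 at 6 h, a difference of -2.58 ± 0.19 (adjusted p = 2.34e-07).

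Mki67, a marker of cycling cells, had 22.3, 84.8 and 68.1 CPM in IL_TNF_24h and 143, 152 and 132 CPM in IL_24h, and 49.4, 55.2 and 76.9 CPM in IL_TNF_6h and 22.8, 36.4 and 24.6 CPM in IL_6h. Its effects were -1.28 ± 0.31 at 24 h, or -0.89 without replicate 1, and 1.11 ± 0.31 at 6 h. Of 30 cell cycle genes tested, Mki67 was the only 1 raised at 6 h, where 3 were lowered and the median effect was -0.36. Over all genes 7.09% were raised and 6.98% lowered at 6 h. Mmp13, a collagenase, had effects of -0.87 at 24 h and 1.12 at 6 h, and Hivep2, a zinc finger protein, of -0.89 and 0.94. The highest IL_6h library of both Mki67 and Mmp13 was replicate 2 and the highest IL_TNF_6h library replicate 3, the same libraries as for Col1a1. Without them and IL_TNF_24h replicate 1 the differences were -2.05 for Mki67 and -2.13 for Mmp13, both still called.

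Scd2, which introduces a double bond into saturated fatty acids (ENSMUSG00000025203, chromosome 19, 44293676 to 44306864), had 132, 227 and 228 CPM in IL_TNF_24h and 119, 117 and 114 CPM in IL_24h. It had 13.0, 11.9 and 14.8 CPM in IL_TNF_6h and 26, 31.6 and 26.1 CPM in IL_6h. The groups did not overlap at either time, with IL_TNF above IL at 24 h and below it at 6 h. The effect was 0.75 ± 0.18 at 24 h and -1.08 ± 0.19 at 6 h, a difference of 1.82 ± 0.26 (adjusted p = 0.000298). Scd1, its paralogue, had effects of 0.83 at 24 h and -1.0 at 6 h. Ppfia4, a scaffold protein of the liprin family, had effects of 0.57 and -1.24, and Rogdi of 1.35 and -0.81.

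The TNF response was also read through 18 lists of genes by function, written from general knowledge, which held 366 distinct genes, 349 of them tested. Their medians are of log2 effects or differences and stand beside a median difference of 0.02 and shares of 1.89% higher and 1.78% lower over all genes. Over all genes 6.03% were raised and 5.08% lowered at 24 h, and 7.09% raised and 6.98% lowered at 6 h. At both times 3.36% were raised and 2.55% lowered. The feedback and subunit genes of NF-kB signalling were mostly raised at both times. Of the 20 genes, all tested, 15 were raised at both times, none had a higher difference and 2 a lower one. Tnfaip3, an inhibitor of NF-kB activation, had 115, 106 and 102 CPM in IL_TNF_24h and 28.6, 24.2 and 24.8 CPM in IL_24h, and 241, 240 and 246 CPM in IL_TNF_6h and 72.0, 72.3 and 65.4 CPM in IL_6h. Its effects were 2.06 at 24 h and 1.79 at 6 h. Nfkbia, another inhibitor, had effects of 1.36 and 1.65. The 2 genes with a lower difference were Nfkbiz (-1.09 ± 0.20), a nuclear regulator of NF-kB, and Tnip1 (-0.86 ± 0.14), a partner of Tnfaip3.

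Of 15 inflammatory cytokine and enzyme genes tested, 1 had a higher difference and 4 a lower one, and the median was -0.08. Without IL_TNF_24h replicate 1 there were 1 higher and 5 lower, Ptgs2, a cyclooxygenase, being added (-1.77), and the median was -0.82. Tnf, Il1b and Tnfsf9, the ligand of a T cell co-stimulator, were raised only early. Ptges, which makes prostaglandin E, had 4.95, 2.57 and 2.85 CPM in IL_TNF_24h and 2.01, 1.38 and 1.98 CPM in IL_24h, and 48.8, 39.0 and 40.1 CPM in IL_TNF_6h and 2.69, 2.01 and 2.67 CPM in IL_6h. Its effect was 0.94 at 24 h and 4.12 at 6 h, and without replicate 1 it was raised only early. Acod1, which makes itaconate, was the gene with a higher difference, with effects of 4.83 at 24 h and 3.90 at 6 h (0.93 ± 0.25, adjusted p = 0.0408). It had 404, 208 and 214 CPM in IL_TNF_24h and 10.2, 9.75 and 9.02 CPM in IL_24h. At 6 h it had 1382, 1266 and 1393 CPM in IL_TNF_6h and 92.2, 89.1 and 90.1 CPM in IL_6h. Its level with TNF was thus lower at 24 h, and the higher difference goes with a lower level in IL_24h. Without replicate 1 its difference was 0.55 (adjusted p = 0.0229).

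Chemokine genes were divided. Of 14 tested, 2 had a higher difference and 4 a lower one, with a median of -0.64, or -1.45 without IL_TNF_24h replicate 1. Ccl5, which attracts T cells and other leukocytes, had 193, 116 and 109 CPM in IL_TNF_24h and 3.04, 2.72 and 2.13 CPM in IL_24h, and 73.7, 70.1 and 90.1 CPM in IL_TNF_6h and 26, 28.9 and 23.7 CPM in IL_6h. Its effect was 5.73 at 24 h and 1.57 at 6 h, a difference of 4.15 ± 0.33 (adjusted p = 3.6e-07), or 3.84 without replicate 1. Cxcl16, a chemokine made as a membrane protein, also had a higher difference (1.26 ± 0.15). Cxcl2, which attracts neutrophils, had an effect of 0.92 at 24 h and 3.33 at 6 h (difference -2.41 ± 0.17). Ccl4 had effects of -0.77 and 1.02 and Ccl3 of -0.46 and 0.97, so both were raised early and lowered late, while Ccl2 was lowered only late.

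Acute-phase and complement genes were the list with the highest median difference, 1.49, or 1.68 without IL_TNF_24h replicate 1. Of 19 tested, 12 were raised at 24 h and 8 at 6 h, and 6 had a higher difference and none a lower one. Several members were near the floor, so the median rests in part on ratios to counts of 0. Saa1, C1s1 and Fpr2 had 0 CPM in every IL_24h library. In IL_TNF_24h Saa1 had 0, 0 and 3.02 CPM, and C1s1 had 0.281, 0.140 and 0.314 CPM. The list also held Marco, Mefv, Fpr1 and Fpr2, which are neither acute-phase nor complement genes. C3, the central complement component, had 6686, 5778 and 5992 CPM in IL_TNF_24h and 332, 324 and 317 CPM in IL_24h, and 3082, 2949 and 2232 CPM in IL_TNF_6h and 842, 591 and 844 CPM in IL_6h. Every IL_TNF library was above every IL library of its time, and the 24 h libraries without TNF were lower than those at 6 h. Its effect was 4.25 at 24 h and 1.86 at 6 h, a difference of 2.39 ± 0.24 (adjusted p = 6.22e-06). Saa3, a serum amyloid protein, had a difference of 2.35 ± 0.39, Serpina3g, a protease inhibitor, of 3.76 ± 0.71, or 2.76 without replicate 1, and Mefv, the pyrin gene, of 1.13 ± 0.26. Hp, haptoglobin, and Cfb, complement factor B, were classed as raised only late. Their means were 3.19 and 0.975 CPM in IL_TNF_24h and 0.138 and 0.0259 CPM in IL_24h. Hp had 0.455, 0.535 and 0.959 CPM in IL_TNF_6h and 0.353, 0.320 and 0.259 CPM in IL_6h. Cfb had 2.05, 1.99 and 1.01 CPM in IL_TNF_6h and 0.552, 0.617 and 1.41 CPM in IL_6h. The late effect on Cfb is thus a ratio to a level near 0, and its level with TNF was not higher at 24 h.

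Interferon-stimulated antiviral genes depended on IL_TNF_24h replicate 1. All 30 were raised at 24 h and 20 at 6 h, against 6.03% and 7.09% of all genes. Each gene has 1 estimate of spread for all groups, so replicate 1 also enters the 6 h test. Over all genes 1105 were raised at 6 h, or 1207 without replicate 1. A missing call at 6 h therefore does not show that an early effect was absent. With all libraries 4 had a higher difference and none a lower one, and the median was 1.21. Without replicate 1 there were 4 higher and 4 lower, with a median of -0.13. By library, the median effect on the list was 3.43, 1.10 and 1.01 at 24 h and 1.16, 1.21 and 1.27 at 6 h, so replicates 2 and 3 at 24 h lay just below the 6 h libraries and replicate 1 far above them.

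Ifit2, an antiviral protein that binds RNA, had 372, 26.1 and 25.6 CPM in IL_TNF_24h and 6.70, 8.06 and 9.97 CPM in IL_24h, and 192, 236 and 280 CPM in IL_TNF_6h and 28.8, 57.4 and 39.9 CPM in IL_6h. Its difference was 1.61 ± 0.92 with all libraries and -0.84 without replicate 1, neither of them called. Ifit3 and Ifit3b moved likewise, to -0.65 each without replicate 1, against 1.76 and 1.54 with it. Ifit3b then lost its call at 24 h (adjusted p = 0.0571) and was not sorted. These 2 genes are near-identical copies, so the division of reads between them is uncertain. Usp18, which restrains interferon signalling, kept a higher difference, 1.29 ± 0.21 with all libraries and 1.13 without replicate 1. It had 123, 91.7 and 90.7 CPM in IL_TNF_24h and 21.3, 22.6 and 23.6 CPM in IL_24h. Oas3, an antiviral enzyme that makes oligoadenylates, was classed as raised only late, with a difference of 2.28 ± 0.49, or 1.29 without replicate 1. It had 577, 154 and 140 CPM in IL_TNF_24h and 37.7, 41.7 and 46.3 CPM in IL_24h. At 6 h it had 304, 292 and 254 CPM in IL_TNF_6h and 202, 194 and 197 CPM in IL_6h. The 6 h groups did not overlap, though the 6 h effect was not called.

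The guanylate-binding and immunity-related GTPases, which act on pathogens inside cells, followed the same library. Of 14 tested, 13 were raised at both times, and no difference was called with all libraries. Without replicate 1 there was 1 higher and 5 lower, and the median was -0.44, against 0.61 with it. Of 18 genes of MHC class I presentation and the immunoproteasome tested, 11 were raised at both times, and with all libraries only H2-Q7 had a called difference (1.63 ± 0.38, or 1.05 without IL_TNF_24h replicate 1). Without that library Tap2, a peptide transporter chain (-1.04), and Nlrc5, an activator of MHC class I genes (-0.94), were called lower, and the median was -0.09, against 0.22 with it. The H2-Q7 reads may be shared with the near-identical H2-Q6. Of 11 MHC class II genes, 7 were raised at both times, Ciita, their main activator, among them, and none had a called difference with or without replicate 1.

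The called differences among genes of alternative activation were all in 1 direction. Of 37 tested, 11 had a higher difference at 24 h and none a lower one, both with all libraries and without IL_TNF_24h replicate 1, with medians of 0.61 and 0.66. The members called were not quite the same, since Pdcd1lg2 lost its call without that library (1.47, adjusted p = 0.0769) and Egr2, a transcription factor, gained one (0.81). The list is not of 1 kind. At 24 h 11 members were raised and 10 lowered, against 6.03% and 5.08% of all genes. At 6 h 3 were raised, near the 7.09% of all genes, and 14 lowered, against 6.98%. Arg1, the arginase gene, had 22.7, 40.3 and 48.3 CPM in IL_TNF_24h and 47.8, 57.6 and 60.1 CPM in IL_24h, and 68.2, 58.8 and 67.9 CPM in IL_TNF_6h and 241, 232 and 271 CPM in IL_6h. The groups overlapped slightly at 24 h and were far apart at 6 h, and the effects were -0.57 and -1.93 (difference 1.36 ± 0.31, adjusted p = 0.0168).

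Mgl2, a galactose-binding lectin, was also lowered only early, with 88.9, 214 and 207 CPM in IL_TNF_24h and 223, 246 and 247 CPM in IL_24h, and 3.47, 2.68 and 3.67 CPM in IL_TNF_6h and 15.7, 11.8 and 14.6 CPM in IL_6h. So were Matk, a tyrosine kinase, Irf4, a transcription factor induced by IL-4, and Ptgs1, a cyclooxygenase. Irf4 had 64.9, 177 and 161 CPM in IL_TNF_24h and 89.3, 87.3 and 82.7 CPM in IL_24h, so replicate 1 lay below IL_24h and the other 2 above it. Without replicate 1 Irf4 and Ptgs1 were lowered early and raised late, with 24 h effects of 0.97 and 0.46.

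Besides Ccl24, the genes of this list raised only late were Clec4n and Clec7a, receptors for fungal sugars, and Pdcd1lg2, a ligand of PD-1. Clec4n had 22.6, 20.3 and 24.3 CPM in IL_TNF_24h and 1.07, 1.92 and 1.79 CPM in IL_24h, with a difference of 3.16 ± 0.35. Ccl22, a chemokine for T helper cells, was raised at both times, with 729, 889 and 821 CPM in IL_TNF_24h and 39.6, 38.9 and 37.1 CPM in IL_24h, and 84.6, 79.9 and 75.3 CPM in IL_TNF_6h and 9.01, 9.03 and 8.10 CPM in IL_6h. Its effects of 4.40 at 24 h and 3.20 at 6 h differed by 1.20 ± 0.26 (adjusted p = 0.0102). Clec10a, a lectin, was lowered at both times, less at 24 h (difference 1.17 ± 0.18). The receptor chains, kinases and STAT factors of IL-4 and IL-13 had no called difference among 16 tested, and among them Socs3, an inhibitor of cytokine signalling, had effects of 1.44 at 24 h and 3.05 at 6 h (adjusted p = 0.0673 for the difference).

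**Figure D4:**
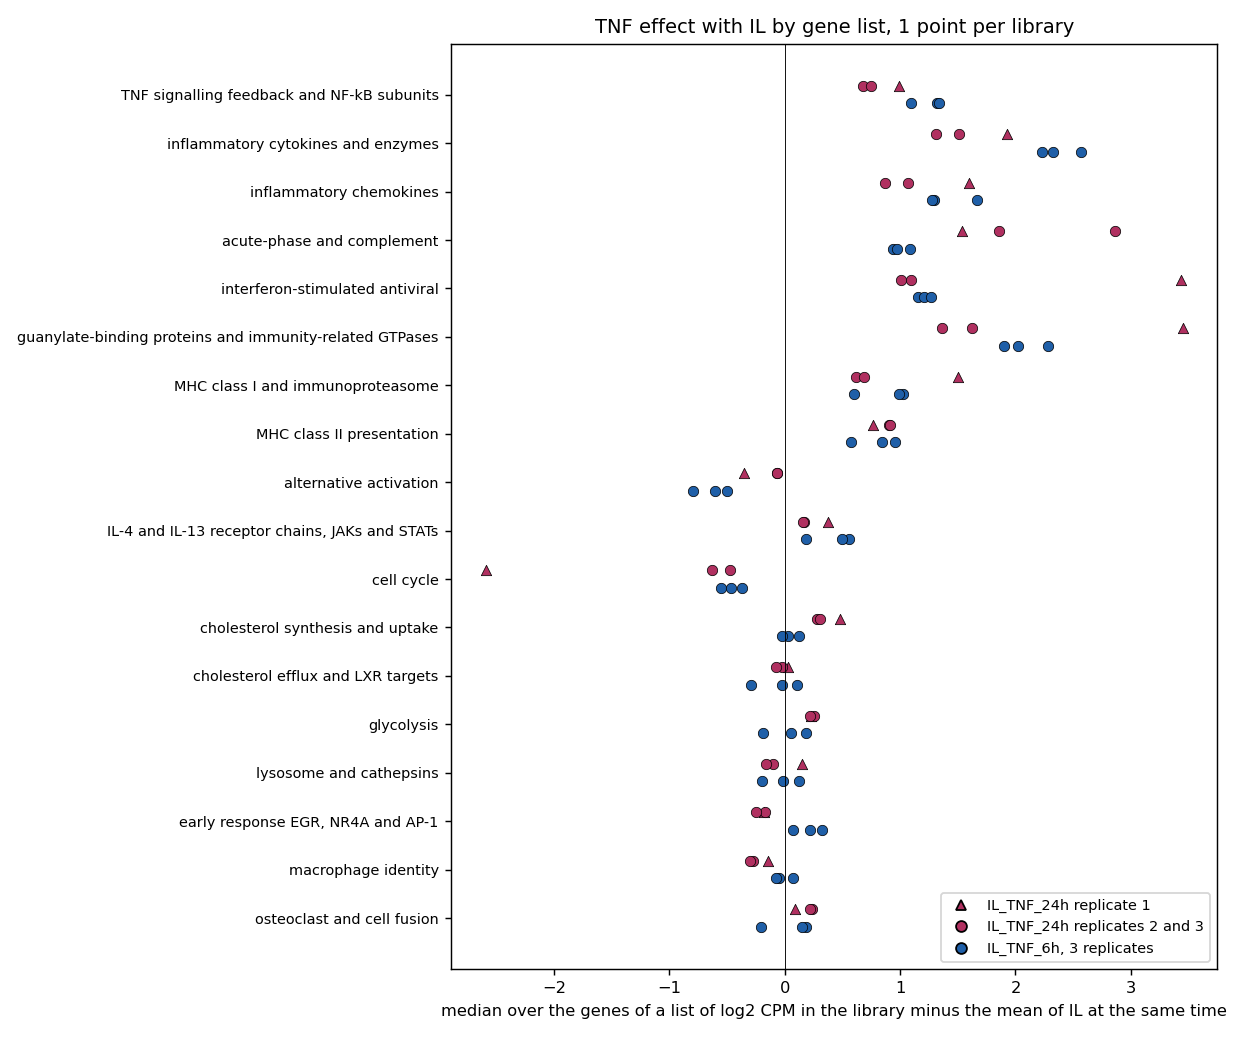
TNF effect with IL for 18 gene lists, 1 point per IL_TNF library (x axis, median over the genes of the list of log2 CPM in the library minus the mean of IL at the same time), with IL_TNF_24h above IL_TNF_6h in each row and IL_TNF_24h replicate 1 as a triangle. The triangle stands at 3.43 for interferon-stimulated antiviral genes and at -2.59 for cell cycle genes, away from the 5 other libraries.

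Of 30 cell cycle genes, 11 were lowered at 24 h, against 5.08% of all genes, and 3 at 6 h, near the 6.98% of all genes. Mki67 and Pcna, the DNA clamp of replication, had a lower difference. The median effect on the 30 genes by library was -2.59, -0.47 and -0.63 at 24 h and -0.37, -0.55 and -0.47 at 6 h. Replicate 1 alone was set apart. Without it Rrm2, a ribonucleotide reductase subunit, also had a called difference, a higher one (1.32), and the median difference was -0.50 with replicate 1 and -0.16 without it. Among 19 macrophage identity genes, Mertk, a receptor for the uptake of dying cells, was lowered only early, with 30.4, 28.1 and 27.6 CPM in IL_TNF_24h and 30.8, 31.7 and 29.4 CPM in IL_24h, and 11, 8.56 and 11.4 CPM in IL_TNF_6h and 32.0, 35.0 and 31.4 CPM in IL_6h. Cd14, a co-receptor for bacterial lipopolysaccharide, was raised only early (difference -1.96 ± 0.19). Maf, Laptm5 and C5ar1 were lowered only late. Without IL_TNF_24h replicate 1, Cx3cr1, a chemokine receptor, was also called higher (1.91) and Fcgr1, an antibody receptor, lower (-0.98).

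The remaining lists held few called differences. Cholesterol synthesis had 1 of 21 (Dhcr7, lowered only early, 0.85), which was lost without IL_TNF_24h replicate 1 (0.76, adjusted p = 0.0712). Glycolysis had 1 of 17 (Pfkp, raised only late) and lysosomal genes none of 25, or 2 lower (Ctsc and Ctsd) without that library. Of 14 genes of cholesterol efflux and LXR, Scd1 and Scd2 were higher and Apoc2 lower, with Nr1h3, the gene of LXR alpha, added as lower without that library. Of 23 EGR, NR4A and AP-1 genes, Nr4a3 was higher and Dusp2, a phosphatase of MAP kinases, lower, with Zfp36, which destabilizes messenger RNA, added as lower without it. Of 9 osteoclast genes tested, Itgb3, an integrin chain, was lowered at both times and less at 24 h (difference 1.61 ± 0.35), and Dcstamp, a cell fusion gene, was added as higher without that library (0.76).

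The levels behind the classes were compared between the times with the limit that time and set cannot be told apart. For genes raised only early, the median log2 difference was -1.01 for IL_TNF_24h over IL_TNF_6h and -0.01 for IL_24h over IL_6h. For genes lowered only early these medians were 1.18 and 0.12. Genes raised only late had medians of 0.85 between the IL_TNF groups and -0.53 between the IL groups, and genes lowered only late of -0.79 and 0.28. These values follow from the sort and carry no test.

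Cells that had TNF without IL gave a readout in libraries that the sort did not use. No untreated cells were sampled at 24 h or 6 h, so TNF_24h against TNF_6h carries time in culture. Whether these groups also form separate sets by sex-linked genes and Ifi202b was not examined. Over all genes 12.7% were higher in TNF_24h and 10.9% lower, by the same test. Of the 133 genes raised only early with IL, 85 (63.9%) were higher in TNF_24h and 5 lower. Of the 117 lowered only early with IL, 73 (62.4%) were lower in TNF_24h and 7 higher.

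Tnf had 419, 469 and 371 CPM in TNF_24h and 119, 130 and 111 CPM in TNF_6h, a difference of 1.80 (adjusted p = 7.79e-08). With IL it had at most 11.2 CPM in IL_TNF_24h. Icosl had 77.8, 83.2 and 90.9 CPM in TNF_24h and 12.5, 13.2 and 13.4 CPM in TNF_6h. Nlrp3 had 169, 221 and 265 CPM in TNF_24h and 72.2, 73.1 and 73.7 CPM in TNF_6h. All 3 genes were thus higher later without IL, while with IL their TNF effect was seen only early. The difference between these courses was not tested.

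Among genes seen only late with IL the shares ran the other way. Of the 99 raised only late, 44 (44.4%) were lower in TNF_24h and 8 higher, and of the 74 lowered only late, 33 (44.6%) were higher and 9 lower. Of the 524 genes raised at both times, 212 (40.5%) were higher in TNF_24h and 57 lower, and of the 398 lowered at both times, 167 (42.0%) were lower and 55 higher. Ccl24 went the same way as with IL, at 2.43, 1.65 and 2.09 CPM in TNF_24h and at most 0.0688 CPM in TNF_6h. Leaving out each of the 6 TNF libraries in turn moved the share of genes raised only early that were higher in TNF_24h between 57.9% and 63.9%, and that of genes raised only late that were lower between 37.4% and 41.4%.

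**Figure D5:**
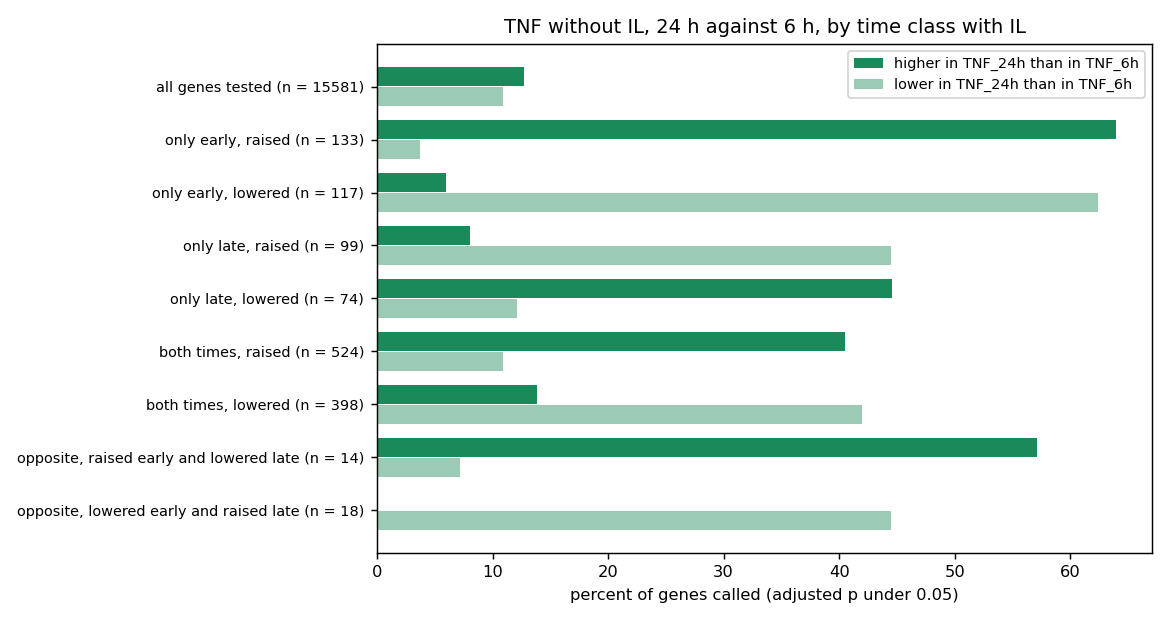
Share of genes in each time class with IL that were higher or lower in TNF_24h than in TNF_6h, in cells without IL (x axis, percent of the genes of the class called), beside all genes tested. The share higher is 63.9% for genes raised only early, 8.08% for genes raised only late and 12.7% for all genes.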

How the data were processed

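The study holds 21 RNA libraries of macrophages grown from bone marrow, 7 groups of 3, grouped by the titles in the labels. The values are counts of reads per gene as the authors deposited them, in 1 table of 47069 gene identifiers, with no normalization. The submitters' processing notes name GRCm38 as the genome build, TopHat2 2.0.12, Subread 1.6.3 with featureCounts, and edgeR 3.28.1. For the annotation and the strand setting nothing is given in the sources used here, so reads of overlapping antisense genes cannot be told apart.

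Identifiers were matched to symbols and GRCm38.p6 positions, with 32832 given a symbol. The 15581 genes that passed filterByExpr held 99.9% of the counts. With R 4.3.3 and edgeR 4.0.16, scaling used the trimmed mean of M values, all 21 libraries entered 1 negative binomial fit with a term for each group, and each contrast went through the quasi-likelihood F test at a Benjamini-Hochberg adjusted p of 0.05. The biological coefficient of variation was 22.8%. The standard error was taken as the absolute log2 change divided by the root of the F value. It does not cover dependence on single libraries, and for genes with few counts it is too narrow. Levels are CPM on scaled totals, and list medians by library use log2 CPM with a prior count of 2.

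Only early means called at 6 h, not called at 24 h, and the difference called. Only late is the converse, and both and opposite mean called at both times with the same or opposite sign. The text names genes of at least 10 CPM that keep their class without IL_TNF_24h replicate 1 and whose IL_TNF and IL libraries do not overlap at the times called, a condition met by 36.4% of all genes at 24 h and 27.2% at 6 h. It takes the 6 largest in each direction for only early and only late, 5 for both times and 4 for opposite. It adds, without asking for a kept class, the 4 that move most without that library. Members of the lists were taken as examples. The members, lists and named examples were chosen with earlier results of these data known. Replicate numbers gave correlations of deviations between IL_TNF_6h and IL_6h of 0.36, -0.31 and -0.27, so they were not taken to pair libraries. Alternatives were DESeq2 1.42.0 size factors and Wald test, counts left unfiltered, a filter asking for 1 CPM in at least 3 libraries, the 12 libraries alone, a replicate block, an effect of at least 2-fold, each library left out in turn and 3 left out together. The method was also run on simulated counts drawn from the kind of model that is fitted, with no library set apart from its replicates. That run cannot show how the classes hold with such libraries.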

Additional observations from a re-analysis of the deposited data

Results flagged for a closer look

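For 33 of the 45 named genes the 24 h and 6 h effects of TNF in the presence of IL differed by the test of the difference itself. A called difference was a condition for the genes seen only early or only late, and these and the opposite genes were taken by its size, so this count follows from the choice and supports nothing. The values below are the log2 effect at 24 h minus that at 6 h. Among genes raised only early the differences were -3.75 for Fzd1, -3.38 for Icosl, -2.79 for Tnf, -2.73 for Il1b, -2.49 for Nlrp3 and -2.42 for Itga4. Among genes lowered only early they were 3.01 for Spint1, 1.86 for Abcd2, 1.84 for Bmf, 1.82 for Gpr155, 1.79 for Tiam1 and 1.71 for Gcnt1. Among genes raised only late they were 4.46 for Ly6a, 4.45 for Ms4a4c, 3.98 for Irf7, 3.54 for Nr4a3, 3.40 for P2rx5 and 3.30 for Ccl24. Among genes lowered only late they were -2.72 for Cd5l, -2.14 for Clstn1, -2.08 for Qpct, -1.74 for Gpx3, -1.60 for Ccl2 and -1.52 for Proz. Among the 10 genes named as moved the same way at both times it was called for Hpgd, at -1.70. Among genes with opposite effects the differences were -2.58 for Phgdh, -2.40 for Mki67, -2.00 for Mmp13, -1.83 for Hivep2, 2.16 for Rogdi, 1.83 for Scd1, 1.82 for Scd2 and 1.81 for Ppfia4.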

How the results depend on the processing

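Of 1095 values of named genes under the alternatives, 1066 kept their side of the threshold, 26 lost the call and 3 gained it. No called value reversed its direction. Those kept include the differences of Ifit2, Ifit3 and Ifit3b, which changed sign without IL_TNF_24h replicate 1. These differences were not called with or without that library. The calls lost were of the differences of Fzd1, Il1b, Ms4a4c and Nr4a3, with adjusted p of at most 0.13, mostly without 1 library of IL_24h, IL_6h, IL_TNF_24h or IL_TNF_6h. Those gained were of Ifit genes with no filter. Of 342 counts of genes, 56 moved by over 1.5 times, and the cause was not tested. With 3 libraries left out, lower differences numbered 437, genes raised only early 215, and genes raised early and lowered late 26. The DESeq2 Wald test gave 485 higher and 443 lower differences, 188 genes lowered only early, 151 raised and 127 lowered only late, 27 raised early and lowered late, and 31 lowered early and raised late. With no filter 119 genes were lowered only late. Without IL_TNF_24h replicate 1 but with the same genes tested, an alternative chosen after seeing the data, 203 were raised only early and 29 lowered early and raised late. Asking for at least 2-fold left, at 24 h, 527 raised and 306 lowered, and at 6 h, 547 raised and 385 lowered. It left 276 raised and 108 lowered at both times, 1 raised early and lowered late, and 2 lowered early and raised late. With the replicate block, 292 differences were higher and 273 lower, 128 genes were raised and 117 lowered only early, and 96 raised and 75 lowered only late. The numbers did not pair the libraries, since IL_TNF_6h replicate 3 correlated best with IL_6h replicate 2 (0.58).

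Leaving out 1 library at a time gave 665 (without IL_24h replicate 1) to 1027 raised and 508 (without IL_24h replicate 2) to 838 lowered at 24 h. It gave 791 to 1207 raised and 741 to 1164 lowered at 6 h. Higher differences numbered 177 (without IL_24h replicate 1) to 337 and lower ones 166 (without IL_24h replicate 1) to 361. Genes seen only early numbered 77 to 194 raised and 71 to 154 lowered, the lowest without IL_6h replicate 3. Genes seen only late numbered 52 (without IL_24h replicate 1) to 103 raised and 45 (without IL_24h replicate 3) to 83 lowered. At both times there were 406 to 504 raised and 274 to 389 lowered, and of opposite sign 8 to 19 raised early and 7 to 27 lowered early. TNF_24h over TNF_6h gave 1452 to 2023 higher and 1197 to 1874 lower. Of 360 list medians, 37 moved by more than a spread between libraries. That spread was the standard deviation, over replicate numbers, of the 24 h minus 6 h list medians, though the numbers do not pair libraries. It was 0.0036 for macrophage identity and 1.42 for interferon-stimulated genes. With 3 libraries left out, the move of the interferon-stimulated median from 1.21 to -0.16 was therefore not counted, so the 37 says little about stability. At this depth, genes with few counts in IL_24h limit what the 24 h effect can show.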
